A study of Mus musculus with 6 samples.

Results

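The SEL1L-HRD1 complex, its cofactors and the paralogs of SEL1L were described in mouse testis RNA as a list of 9 genes: Sel1l, Syvn1, Os9, Erlec1, Herpud1, Herpud2, Fam8a1, Sel1l2 and Sel1l3. They were found by symbol among the 55536 genes of the count tables, and all 9 were among the 21465 genes with enough counts to be tested. Testes came from 3 KOStra8 and 3 HETStra8 mice aged 7 weeks, with 1 library for each mouse. KOStra8 mice carried Sel1L flox/Δ;Stra8-Cre, that is 1 allele already deleted, 1 floxed allele, and Cre recombinase driven by the promoter of Stra8, a gene of male germ cells. HETStra8 mice were littermates described in the deposited design as Sel1L flox/Δ, without naming Stra8-Cre, whereas the study's own account of the strain also puts Sel1L flox/+;Stra8-Cre animals under this name. No genotype was given mouse by mouse, so the controls, which were heterozygous and not wild type, may not all carry the same alleles. Per the study, the Cre leaves SEL1L in spermatogonia and in Sertoli cells, so the whole organ keeps cells with an intact allele, and a count for a whole gene does not separate transcripts of the deleted allele from intact ones. In RNA of whole testis, fewer cells of a type and less RNA per cell cannot be told apart.

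Endoplasmic reticulum-associated degradation (ERAD) takes misfolded proteins out of the endoplasmic reticulum for destruction by the proteasome. SEL1L is the membrane adaptor that holds the ubiquitin ligase HRD1, encoded by Syvn1, and receives clients from the lectins OS9 and ERLEC1, which recognise trimmed glycans. HERPUD1, its relative HERPUD2 and FAM8A1 are membrane proteins of the HRD1 assembly. Several of these genes are raised by the transcription factors ATF6 and XBP1 during the unfolded protein response (UPR), which act through response elements in promoters.

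Sel1l transcripts fell to 47.7% of the HETStra8 level in KOStra8 testis, while none of the other 8 genes passed the test. The ligase Syvn1, both lectins, Herpud2 and Fam8a1 overlapped between the groups. Herpud1 was lower in every KOStra8 mouse by a small margin without passing, and the paralogs Sel1l2 and Sel1l3 had estimates above 0 with intervals that included no change. A gene was called at an adjusted p below 0.01 (edgeR's quasi-likelihood test with Benjamini-Hochberg adjustment over all tested genes). Under this rule 1 of the 9 genes was called, against 0.0186% of all genes tested, or 4 genes. At an unadjusted p below 0.05 there were 2 of 9, Sel1l and Herpud1, against 12.3% of all genes. Sel1l was the targeted gene, so its place in these counts of the 9 says nothing about the set. Among the other 8 genes there was 1 at that level, Herpud1. Without HETStra8 mouse 3, a library nearer to the KOStra8 mice than to its group, there were 4 of 9 at that level, against 19.8% of all genes. Erlec1 and Sel1l2 were added, and Sel1l was still the 1 gene called. Without HETStra8 mouse 1 there were 2 of 9, against 1915 of 22173 genes, and Sel1l was again the 1 gene called.

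The regions just upstream of 4 of the genes are shown because they carry, or lack, the letters of the ER stress response elements through which the UPR reaches this pathway. They are RefSeq sequences of GRCm38.p6 in the direction of the gene, covering the 250 bases before the annotated start of Syvn1 (chr19:6046326-6046575, plus strand), Herpud1 (chr8:94386179-94386428, plus strand), Sel1l (chr12:91849158-91849407, minus strand) and Sel1l2 (chr2:140389711-140389960, minus strand). Capitals mark the CCAAT box (CCAAT, or ATTGG when read from the opposite strand) and, in Syvn1 and Herpud1, the full response element.
Syvn1: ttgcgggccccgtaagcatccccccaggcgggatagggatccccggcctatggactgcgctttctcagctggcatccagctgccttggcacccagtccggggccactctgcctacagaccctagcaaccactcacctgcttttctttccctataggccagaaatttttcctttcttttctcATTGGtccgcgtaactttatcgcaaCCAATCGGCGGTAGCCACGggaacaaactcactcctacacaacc
Herpud1: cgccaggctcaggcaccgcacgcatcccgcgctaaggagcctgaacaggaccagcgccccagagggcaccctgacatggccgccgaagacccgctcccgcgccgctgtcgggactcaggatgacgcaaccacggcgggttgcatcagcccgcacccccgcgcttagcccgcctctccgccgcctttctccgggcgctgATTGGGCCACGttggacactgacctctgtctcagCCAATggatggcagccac
Sel1l: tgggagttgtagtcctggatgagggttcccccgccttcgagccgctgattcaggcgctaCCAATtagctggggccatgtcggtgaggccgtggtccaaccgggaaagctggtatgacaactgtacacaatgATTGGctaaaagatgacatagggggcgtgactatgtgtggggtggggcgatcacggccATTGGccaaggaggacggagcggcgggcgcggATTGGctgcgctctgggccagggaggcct
Sel1l2: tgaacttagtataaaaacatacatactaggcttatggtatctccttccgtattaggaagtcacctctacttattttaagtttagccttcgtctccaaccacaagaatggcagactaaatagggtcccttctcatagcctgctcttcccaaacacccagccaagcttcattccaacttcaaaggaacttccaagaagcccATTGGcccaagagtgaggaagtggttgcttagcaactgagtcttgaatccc
Syvn1 held the element ERSE (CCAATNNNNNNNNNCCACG) 44 to 26 bases before its start. This element was present on either strand in 39 of 32851 RefSeq promoters (0.119%), in windows from 250 bases before the start to 50 after it. Herpud1 held ERSE-II (ATTGGNCCACG) 52 to 42 bases before its start, an element found in 12 of these promoters (0.0365%). The first 5 letters of both elements are themselves a CCAAT box, which 37.4% of promoters held. Sel1l had 4 CCAAT boxes and Sel1l2 had 1, at 51 to 47 bases before its start, and neither had an ERSE or ERSE-II with these exact letters. The core of the UPR element, TGACGTGG, was in 0.676% of all promoters and in 0 of the 7 genes of the set with an entry, which were the 4 above with Os9, Herpud2 and Fam8a1. A match describes letters only, and binding was not measured here.

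Library totals ranged from 28875108 to 36526695 counts on genes, and no pair of libraries agreed within counting noise. HETStra8 mouse 3 stood nearer to the KOStra8 libraries than to its own group. Its chi-square per degree of freedom over genes was 9.51 to 12.4 against the KOStra8 mice, and 27.5 and 14.2 against HETStra8 mice 1 and 2. HETStra8 mouse 1 was the farthest from the KOStra8 mice, at 26.2 to 40.5, and stood at 13.7 against HETStra8 mouse 2. Results for the 9 genes and the pathway lists are given with and without HETStra8 mouse 3, and counts also without HETStra8 mouse 1. The log2 fold changes over genes also followed GC content (Spearman's rho across genes, which are not independent replicates, -0.472), and values corrected for GC content and transcript length, called GC-corrected, are given for the 9 genes and for the genes named from the 2 pathway lists. HETStra8 mouse 1 carried 11.3 CPM (counts scaled by TMM to a common library size, the level scale used throughout) of 6 epididymis markers in sum, against 0.967 to 1.23 CPM in the other 5 mice, and the marker Lcn8 was at 0 in all 6 libraries.

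Sel1l (ENSMUSG00000020964; GRCm38 chromosome 12, 91806043 to 91849157, minus strand) encodes the adaptor. Taking mice 1 to 3 of each group in order, as in all such lists here, HETStra8 testes had 49.3, 47.6 and 42.4 CPM and KOStra8 testes 24.2, 22.0 and 20.3 CPM. Every KOStra8 mouse lay below every HETStra8 mouse, and the gap between the groups was larger than the range within either. The means were 46.4 ± 3.59 CPM and 22.2 ± 1.97 CPM (SD, n = 3 each). The log2 fold change was -1.07 ± 0.10 (SE; 95% interval -1.29 to -0.85; adjusted p = 0.00061, edgeR's quasi-likelihood test). The estimate was -1.12 without HETStra8 mouse 3 and -1.08 when GC-corrected. The adjusted p rose to 0.0132 without KOStra8 mouse 2 and to 0.0120 without KOStra8 mouse 3, above the threshold of 0.01, while the log2 fold change was -1.06 and -1.01. Retained Sel1l RNA amounted to 636 to 846 counts in the KOStra8 libraries, against 1413 to 1603 in HETStra8.

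None of the nearest tested genes around Sel1l passed the test, though most lie far from it. Gm16876, with 4 to 18 counts, lies 112 kb away and Gtf2a1 216 kb, on one side with Ston2. On the other side 4930559C10Rik, Gm4808 and Flrt2 lie 1567 to 3843 kb away. Among the 3 nearest tested genes on each side, the log2 fold changes were 0.13 for Gtf2a1, 0.02 for Gm16876, 0.01 for Ston2, 0.23 for 4930559C10Rik, 0.33 for Gm4808 and 0.17 for Flrt2. Ston2, an endocytic adaptor gene on the same strand, lies 17.7 kb from Sel1l and had 45.8 ± 2.48 CPM in HETStra8 and 45.9 ± 4.26 CPM in KOStra8 (SD, n = 3; adjusted p = 0.986, edgeR's quasi-likelihood test).

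**Figure D1:**
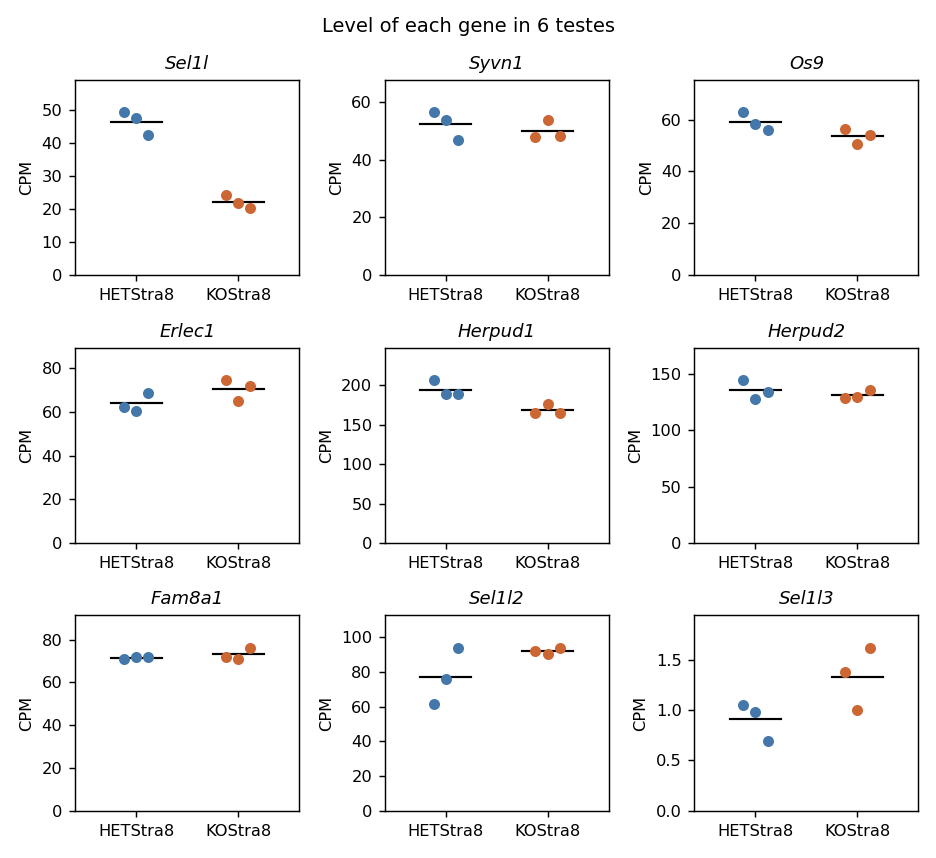
Level in CPM (vertical axes, each from 0) of the 9 genes in 3 HETStra8 (blue) and 3 KOStra8 (orange) testes, 1 point per mouse in the order 1 to 3, with black lines for group means. Sel1l fell from 46.4 to 22.2 CPM on average, Herpud1 was lower in all 3 KOStra8 mice, and the groups overlapped in the other 7 genes.

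Syvn1 (ENSMUSG00000024807; chromosome 19, 6046576 to 6053712, plus strand) encodes HRD1, the ubiquitin ligase that SEL1L stabilises as a protein. Its transcript was at 56.3, 53.6 and 46.7 CPM in HETStra8 testes and at 47.9, 53.7 and 48.2 CPM in KOStra8 testes. The KOStra8 values lay inside the HETStra8 range. The log2 fold change was -0.06 ± 0.10 (SE; 95% interval -0.27 to 0.14; adjusted p = 0.820, edgeR's quasi-likelihood test), an interval from 0.830 to 1.10 of the HETStra8 level. The sign depended on the processing, since the GC-corrected value was 0.08, beside -0.13 without HETStra8 mouse 3. Syvn1 overlaps Mrpl49 and Mir6988 in the annotation, and whether counting used the strand is not given in the sources used here.

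The ratio of adaptor to ligase transcripts was therefore lower in KOStra8. Per kb of exon, the ratio of Sel1l to Syvn1 was 0.497, 0.505 and 0.515 in HETStra8 and 0.287, 0.232 and 0.239 in KOStra8. The mean log2 ratio was lower by 1.01 in KOStra8 without overlap, and a two-sided exact permutation test gave p = 0.1, the smallest p that 3 mice against 3 allow. The Sel1l values that fell are part of this ratio, so it is not a separate result.

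Neither lectin gene passed the test. Os9 (ENSMUSG00000040462; chromosome 10, 127095650 to 127121131, minus strand) was at 62.8, 58.1 and 55.9 CPM in HETStra8 and 56.4, 50.7 and 54.0 CPM in KOStra8. KOStra8 mice 2 and 3 lay below the HETStra8 range and mouse 1 inside it. Between the groups Os9 differed by a log2 fold change of -0.13 ± 0.09 (SE; 95% interval -0.32 to 0.05; adjusted p = 0.547, edgeR's quasi-likelihood test), with a GC-corrected value of 0.01. Erlec1 (ENSMUSG00000020311; chromosome 11, 30930774 to 30954335, minus strand), which encodes the other lectin, was at 62.2, 60.7 and 68.7 CPM in HETStra8 and 74.6, 65.0 and 71.8 CPM in KOStra8. KOStra8 mouse 2 fell below HETStra8 mouse 3, so the groups overlapped. For Erlec1 the log2 fold change was 0.14 ± 0.09 (SE; 95% interval -0.05 to 0.33; adjusted p = 0.529, edgeR's quasi-likelihood test), with a GC-corrected value of 0.01. Without HETStra8 mouse 3 the estimates were -0.16 for Os9 (adjusted p = 0.333) and 0.21 for Erlec1 (unadjusted p = 0.031, adjusted p = 0.202, edgeR's quasi-likelihood test). The estimates of the 2 lectin genes thus had opposite signs before the correction and lay at 0.01 after it. Erlec1 overlaps Asb3 on the opposite strand, and 0.611% of its 50-base sequences also occur in other genes.

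Herpud1 (ENSMUSG00000031770; chromosome 8, 94386438 to 94395377, plus strand) encodes the membrane protein HERP, which recruits factors to HRD1, and had the most counts of the 9 genes. Its level was 206, 188 and 188 CPM in HETStra8, compared with 164, 176 and 165 CPM in KOStra8. All KOStra8 mice were below all HETStra8 mice, a pattern that 8.43% of tested genes showed in this direction. The means were 194 ± 10.4 and 169 ± 6.52 CPM (SD, n = 3 each), with a log2 fold change of -0.20 ± 0.07 (SE; 95% interval -0.36 to -0.05; unadjusted p = 0.0138 and adjusted p = 0.292, edgeR's quasi-likelihood test). Over all alternatives the log2 fold change stayed between -0.23 and -0.13, the latter GC-corrected, with an adjusted p of 0.109 at the lowest. It was -0.22 without HETStra8 mouse 3. Herpud1 overlaps Gm15890 on the opposite strand.

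Herpud2 (ENSMUSG00000008429; chromosome 9, 25108132 to 25151820, minus strand), the relative of Herpud1, was at 144, 128 and 134 CPM in HETStra8 and 129, 129 and 136 CPM in KOStra8. The 3 KOStra8 mice lay within the HETStra8 range, and the log2 fold change was -0.04 ± 0.08 (SE; 95% interval -0.21 to 0.12; adjusted p = 0.854, edgeR's quasi-likelihood test). Fam8a1 (ENSMUSG00000069237; chromosome 13, 46669522 to 46678056, plus strand) encodes a cofactor that promotes assembly of the HRD1 complex. It was the steadiest gene of the set within the control group, at 70.8, 71.8 and 71.8 CPM in HETStra8, beside 72.03, 71.1 and 76.1 CPM in KOStra8. Its log2 fold change was 0.03 ± 0.08 (SE; 95% interval -0.13 to 0.20; adjusted p = 0.896, edgeR's quasi-likelihood test). The sign changed for Fam8a1 when GC-corrected (-0.05), and for Herpud2 without HETStra8 mouse 1 (0.01). Herpud2 was at -0.10 when GC-corrected, and without HETStra8 mouse 3 the values were -0.04 for Herpud2 and 0.05 for Fam8a1.

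**Figure D2:**
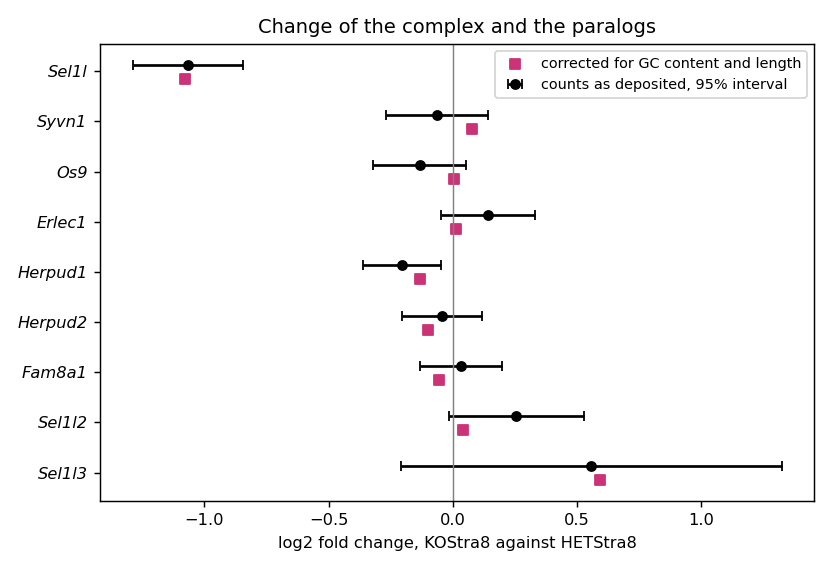
Log2 fold change of KOStra8 against HETStra8 (horizontal axis) for the 9 genes. Black points with bars are edgeR estimates with 95% intervals, pink squares are the estimates after correction for GC content and length, without bars. Only the intervals of Sel1l and Herpud1 excluded 0, and the correction moved Sel1l2 from 0.25 to 0.04 while Sel1l stayed at -1.08.

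A further question put to these data was whether the paralogs rise when Sel1l falls. Sel1l2 (ENSMUSG00000074764; chromosome 2, 140229855 to 140389706, minus strand), whose product resembles SEL1L in sequence, was abundant in testis. It stood at 61.6, 76.2 and 93.7 CPM in HETStra8, and at 92.0, 90.5 and 93.8 CPM in KOStra8. The KOStra8 mice were tightly grouped near the top of a wide HETStra8 range, and HETStra8 mouse 3 was as high as they were. Between the groups the log2 fold change was 0.25 ± 0.12 (SE; 95% interval -0.02 to 0.53; adjusted p = 0.430, edgeR's quasi-likelihood test). Without HETStra8 mouse 3 it was 0.43, with an adjusted p of 0.0129 in the same test, and without HETStra8 mouse 1 it was 0.12. The GC-corrected value was 0.04 (adjusted p = 0.947, edgeR's quasi-likelihood test), and Sel1l2 had the lowest GC content of the 9 genes, 41.3% against 43.7% to 57.1% in the others. Markers of spermatocytes also had estimates above 0, in 8 of 10 with a median log2 fold change of 0.09 and summed levels of 2614 to 2744 CPM in HETStra8 and 2873 to 3051 CPM in KOStra8. The part of spermatocyte content in the Sel1l2 values was not tested.

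Sel1l3 (ENSMUSG00000029189; chromosome 5, 53107083 to 53213927, minus strand), the more distant paralog, was near the bottom of what these libraries measure. It had 33, 33 and 23 counts in HETStra8 and 48, 29 and 59 counts in KOStra8, or 1.05, 0.981 and 0.690 CPM against 1.37, 1.00 and 1.62 CPM. KOStra8 mouse 2 lay below HETStra8 mouse 1, so the groups overlapped. The log2 fold change was 0.56 ± 0.36 (SE; 95% interval -0.21 to 1.33; adjusted p = 0.545, edgeR's quasi-likelihood test). For Sel1l3 the interval ran from 0.864 to 2.51 of the HETStra8 level, so whether the level changed was not resolved. Its estimate was 0.59 when GC-corrected and 0.40 without HETStra8 mouse 3. Of its 50-base sequences 0.193% also occur in other genes, none of them a paralog of the set.

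Put on a common scale by length, the 3 paralogs were far from equal. Per kb of exon, Sel1l2 stood at 22.5, 27.8 and 34.2 CPM in HETStra8 and 33.6, 33.0 and 34.3 CPM in KOStra8, whereas Sel1l stood at 4.96 to 5.76 and 2.37 to 2.83 CPM. The ratio of Sel1l2 to Sel1l was 3.90, 5.00 and 6.90 in HETStra8 and 11.9, 12.9 and 14.4 in KOStra8. Sel1l is the denominator, so this separation contains the fall of Sel1l and is no evidence of a change of Sel1l2, which overlapped between the groups. The size of the ratio depended on the length used, since Sel1l has 8555 exon bases and a longest coding length of 2370, against 2739 and 2064 for Sel1l2. With coding length in place of exon length, the mean ratio was 1.94 in HETStra8 and 4.80 in KOStra8, against 5.27 and 13.1 with exon length. Sel1l made up 16.5% ± 3.84 of the summed paralog level in HETStra8 and 7.13% ± 0.651 in KOStra8 per exon length (SD, n = 3), and 34.7% ± 6.33 and 17.2% ± 1.41 per coding length. The sum itself per exon length was 33.7 ± 5.45 and 36.3 ± 0.570 CPM per kb (two-sided exact permutation p = 0.6), with the KOStra8 mice inside the HETStra8 range. Per coding length the order of the means turned, at 57.2 ± 6.28 CPM per kb in HETStra8 and 54.4 ± 0.896 in KOStra8 (two-sided exact permutation p = 0.6).

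**Figure D3:**
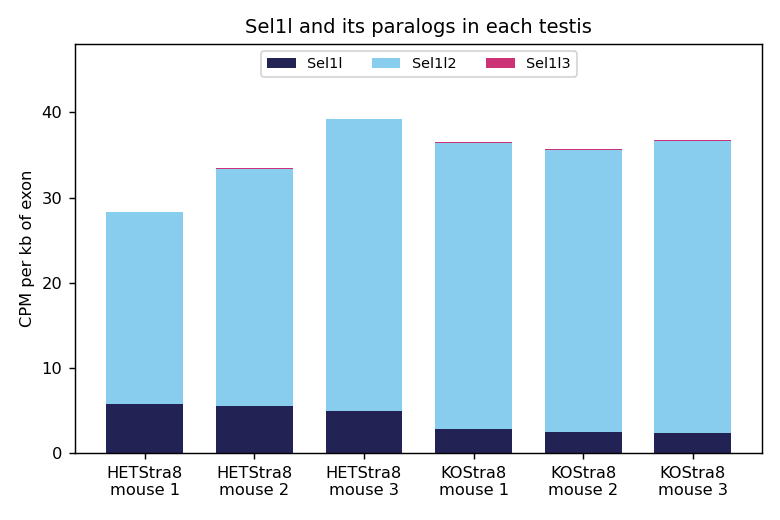
Stacked level of Sel1l, Sel1l2 and Sel1l3 in CPM per kb of exon (vertical axis from 0) in each of the 6 testes. Sel1l2 made up most of each bar, Sel1l3 is barely visible, and the HETStra8 totals lay between 28.4 and 39.2 while the KOStra8 totals lay between 35.7 and 36.8.

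Over the 9 genes, levels per kb of exon in HETStra8 put Herpud1 first at 83.2 ± 4.45 CPM, followed by Sel1l2 at 28.2 ± 5.87, Herpud2 at 23.1 ± 1.45, Os9 at 22.4 ± 1.33, Erlec1 at 19.6 ± 1.31 and Fam8a1 at 18.7 ± 0.147. Syvn1 at 10.7 ± 1.02, Sel1l at 5.43 ± 0.420 and Sel1l3 at 0.0921 ± 0.0194 CPM per kb came last (SD, n = 3). The ranges of Sel1l2, Herpud2 and Os9 all overlapped each other, as did those of Erlec1 and Fam8a1, so the order within these groups was not resolved. In KOStra8 the order differed only in that Erlec1 came before Os9. With coding length, Sel1l2 moved from rank 2 to rank 5, while Herpud1 stayed first and Syvn1, Sel1l and Sel1l3 stayed the last 3 in the same order.

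The rest of the pathway was measured with a list of ERAD genes and a list of UPR targets. Of 35 other ERAD genes, 0 were called (edgeR's quasi-likelihood test), 9 had estimates above 0 and 26 below, and the median log2 fold change was -0.08, beside -0.01 for all tested genes. GC-corrected, 9 were above and 26 below again, but these were not all the same genes, since signs changed in both directions. The groups did not overlap in 4 of the 35, all with KOStra8 lower. That pattern was shown by 8.43% of all genes, and the opposite one by 9.33%. At an unadjusted p below 0.05 there were 4 genes, all with lower estimates, against the 12.3% of all genes given above. These were Ubac2 (-0.26), Derl3 (-0.26), Nploc4 (-0.21) and Aup1 (-0.20), with GC-corrected values of -0.15, -0.11, -0.10 and -0.05. UBAC2 is a membrane partner of ERAD ligases, NPLOC4 a cofactor of the extraction ATPase, and AUP1 a recruiter of the ubiquitin-conjugating enzyme UBE2G2. Genes whose products work closest to HRD1 had estimates of -0.17 for Derl1 and 0.03 for Derl2, which encode derlins of the membrane channel, -0.06 for the conjugating enzyme gene Ube2j1 and -0.08 for Vcp, the extraction ATPase. The GC-corrected values were -0.13 for Derl1, -0.09 for Derl2, which changed sign, -0.16 for Ube2j1 and -0.07 for Vcp. Ube2j1 was at 364 to 392 CPM in HETStra8 and 354 to 361 CPM in KOStra8, and Vcp at 326 to 364 CPM and 321 to 333 CPM. Without HETStra8 mouse 3, the count at an unadjusted p below 0.05 was 12 of 35, against 19.8% of all genes in that fit, and 0 were called. Without HETStra8 mouse 1 the count was 0 of 35, against 1915 of 22173 genes, and 0 were called.

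Of 16 genes known as targets of ATF6 and XBP1, 0 were called (edgeR's quasi-likelihood test), with 8 estimates above 0, 8 below and a median of 0.01. GC-corrected, 12 were above 0 and 4 below, with a median of 0.04. At an unadjusted p below 0.05 there were 3 of 16, all with higher estimates, against 12.3% of all genes. In 4 of the 16 the groups did not overlap and KOStra8 was higher, a pattern that 9.33% of all genes showed. In 0 of the 16 did every KOStra8 mouse lie below every HETStra8 mouse, against 8.43% of all genes. Hsp90b1, which encodes the chaperone GRP94, was at 474, 479 and 530 CPM in HETStra8 and 603, 620 and 575 CPM in KOStra8. Each KOStra8 mouse lay above each HETStra8 mouse, with a log2 fold change of 0.28 ± 0.07 (SE; unadjusted p = 0.0012, adjusted p = 0.150, edgeR's quasi-likelihood test). Dnajc3, an HSP40 cochaperone gene, stood at 0.28 on the log2 scale (adjusted p = 0.281, edgeR's quasi-likelihood test). Hspa5, which encodes BiP, was at 536 to 552 CPM in HETStra8 and 591 to 617 CPM in KOStra8, a log2 fold change of 0.15 (adjusted p = 0.367, edgeR's quasi-likelihood test). GC-corrected, the estimates were 0.12 for Hsp90b1, 0.13 for Dnajc3 and 0.12 for Hspa5. Without HETStra8 mouse 3, Hsp90b1 and Dnajc3 were called, at adjusted p values of 0.0052 and 0.0072 (edgeR's quasi-likelihood test), when 2.01% of all genes were. Without HETStra8 mouse 1, 0 of the 16 were called, when 14 of 22173 genes were. Hyou1, the ER chaperone gene next in the order of p, had an estimate of -0.13 and a GC-corrected one of -0.03. Herpud1, which holds ERSE-II and is itself a target of this response, had an estimate of -0.20. That was opposite in direction to Hsp90b1, Dnajc3 and Hspa5, and the same as the 8 of 16 targets below 0 before the correction.

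**Figure D4:**
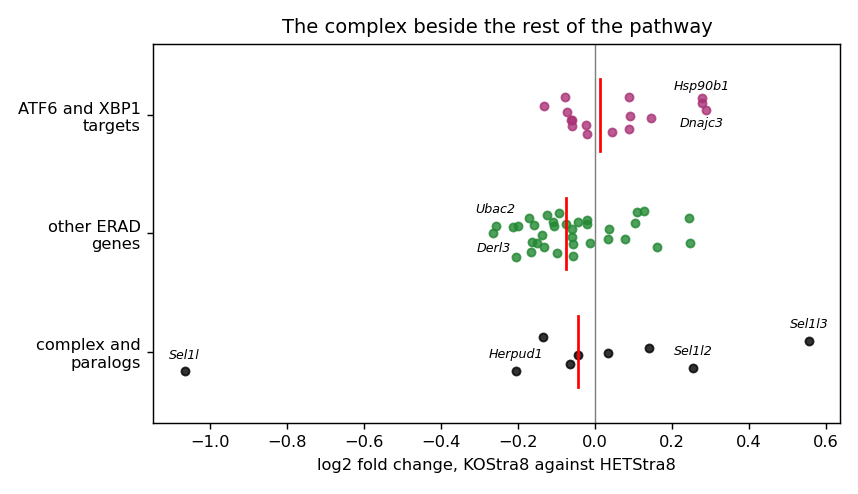
Log2 fold change of KOStra8 against HETStra8 (horizontal axis) for the 9 genes, 35 other ERAD genes and 16 ATF6 and XBP1 targets, 1 point per gene with vertical scatter for legibility and red lines for medians. Sel1l at -1.07 lies apart from the others, and the other ERAD genes span -0.26 to 0.25 around a median of -0.08.

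Cell type markers were measured beside these genes. All 9 Sertoli markers had estimates below 0 (median -0.28; summed levels 936 to 1140 CPM in HETStra8 and 777 to 906 CPM in KOStra8), as did all 7 Leydig markers (median -0.30; 534 to 813 and 446 to 579 CPM), all 5 macrophage markers (median -0.65) and all 5 peritubular myoid markers (median -0.21). Germ cell markers were abundant, as in testis, with 9 elongating spermatid markers summing to 15636 to 15714 CPM in HETStra8 and 13936 to 15664 CPM in KOStra8. Of these, 8 of 9 had estimates below 0 (median -0.07). The medians were -0.07 for 8 round spermatid markers (5 below 0), and -0.11 for 6 markers of differentiating and -0.03 for 8 of undifferentiated spermatogonia (4 below 0 in each). For 5 endothelial markers the median was -0.19, with 3 below 0 and 2 above. In every marker list 0 genes were called, against 0.0186% of all genes. At an unadjusted p below 0.05 (edgeR's quasi-likelihood test) were 4 of 9 Sertoli, 2 of 5 macrophage, 2 of 10 spermatocyte and 2 of 9 elongating spermatid markers. Leydig, peritubular myoid and round spermatid lists had 1 each and the others 0, against 12.3% of all genes. No GC-corrected values are given for the markers. Apart from the endothelial list, which was split, the somatic markers had the direction of Herpud1, Os9 and most other ERAD genes before the GC correction. Spermatid markers were also mostly below 0. The part of somatic or spermatid content in those estimates was not tested.

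**Figure D5:**
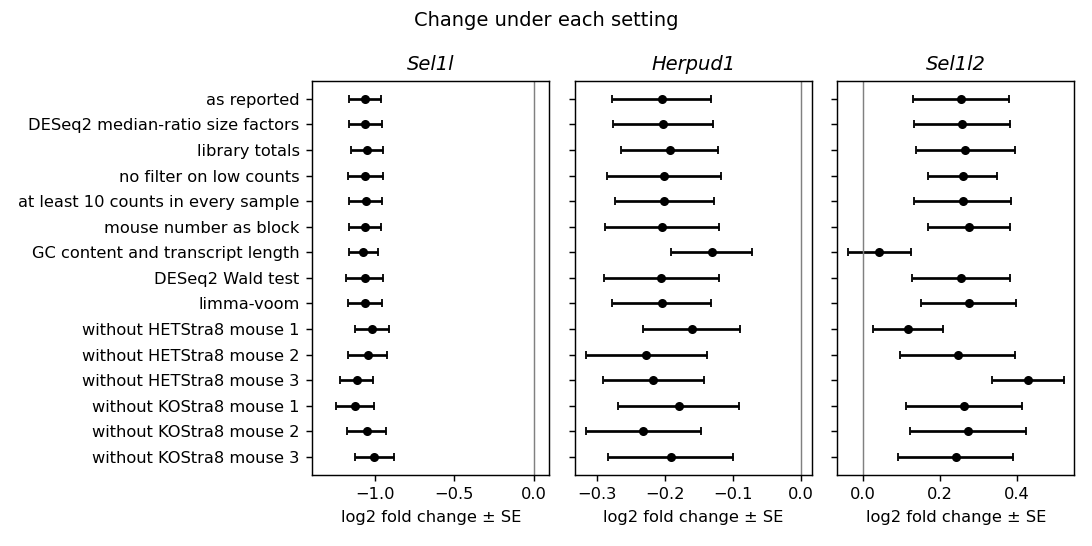
Log2 fold change ± SE (horizontal axes, which differ in range) of Sel1l, Herpud1 and Sel1l2 as reported and under 14 alternatives, 1 row per alternative. Sel1l stayed between -1.13 and -1.01 and Herpud1 between -0.23 and -0.13, whereas Sel1l2 ranged from 0.04 to 0.43.

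The genes whose levels followed Sel1l most closely over the 6 libraries, among 13123 genes at a mean log2 CPM of at least 2, were Por (Pearson's r = 0.997), Ttll13 (0.997) and Kif17 (0.991). Por, which encodes cytochrome P450 oxidoreductase of the ER membrane, was at 27.5 ± 0.915 CPM in HETStra8 and 20.4 ± 0.451 CPM in KOStra8 (SD, n = 3; log2 fold change -0.43, adjusted p = 0.135, edgeR's quasi-likelihood test). For Sel1l2 the closest were 4921521D15Rik (0.997), 1700017N19Rik (0.996) and Ppid (0.995), and 389 genes exceeded 0.95, against 92 for Sel1l. The points share the split into groups, and for Sel1l2 the spread among HETStra8 mice, so these values describe likeness over 6 libraries only.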

How the data were processed

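RNA of whole testis from 6 mice was made by the authors into poly(A)-selected libraries. For each mouse the deposited file holds raw counts, whole numbers for 55536 Ensembl genes that were all present in GENCODE mouse release 21. The submitters' processing notes name STAR 2.7.1a, featureCounts 1.6.0 and GRCm38 among other tools, without their roles, and the strand setting of counting is not given in the sources used here. The labels give no batch.

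The groups were compared with edgeR 4.0.16 in R 4.3.3 (default expression filter, TMM scaling, robust quasi-likelihood model of genotype, two-sided F test, Benjamini-Hochberg adjustment over 21465 genes). Calls used an adjusted p below 0.01. CPM are TMM-normalized, and levels between genes are per kb of all exon bases of a gene. Library totals of 28875108 to 36526695 counts leave the spread between mice (common biological coefficient of variation 0.16) as the main error, except for Sel1l3. The code was tested on simulated counts. Alternatives were DESeq2 1.42.0 size factors and Wald test, library totals, other count filters, limma-voom (limma 3.58.1), a loess correction of each library for GC content with length, a replicate block, and leaving out each mouse. Levels per transcript or coding length were added after seeing the data.

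The 9 genes and the gene lists were chosen with earlier results of these data known. Genes named were the 9, the 4 with the smallest p in each of the ERAD and UPR lists, Derl1, Derl2, Ube2j1 and Vcp, the 3 nearest tested genes on each side of Sel1l, and the 3 most like Sel1l, Syvn1 and Sel1l2. Rnf170 was added after seeing the data. Promoters came from RefSeq for 7 of the 9.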

Additional observations from a re-analysis of the deposited data

How the results depend on the processing

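The log2 fold change of Sel1l kept its direction under all 14 alternatives. Leaving out each mouse in turn gave -1.13 to -1.01, and the call at an adjusted p below 0.01 was lost without KOStra8 mouse 2 (-1.06) or mouse 3 (-1.01), so that the number of called genes among the 9 ranged from 0 to 1. The cause was not tested. The number of ATF6 and XBP1 targets called ranged from 0 to 2, the higher without HETStra8 mouse 3. In that fit 443 genes were called in all, against 14 without HETStra8 mouse 1 and 4 with every mouse. Signs reversed after the correction for GC content and length for Syvn1 (0.0764), Os9 (0.0055) and Fam8a1 (-0.0543), and without HETStra8 mouse 1 for Herpud2 (0.0053; range over mice left out -0.0843 to 0.0053), none of them a called gene. The ratio of Sel1l2 to Sel1l in HETStra8 was 5.27 per exon length, 4.79 per longest transcript and 1.94 per coding length. Per coding length the Sel1l share of the paralog sum was 34.7% in place of 16.5%, and the difference of the sum, KOStra8 minus HETStra8, was -2.89 in place of 2.65 CPM per kb. All genes called numbered 385 without a filter on low counts and 132 with DESeq2. The numbers of the mice did not pair the libraries (r of same-numbered deviations -0.0726, -0.119 and 0.177). With the replicate block Sel1l stood at -1.07 and 1 of the 9 genes was called, while calls over all genes went from 4 to 32. Counting depth limits Sel1l3 only, and intervals for the other 8 genes are set by the spread between mice.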

Other observations

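Among the other ERAD genes, 8 were grouped as membrane ubiquitin ligases outside the HRD1 complex. Of these 8, 7 had estimates below 0, with log2 fold changes from -0.14 to 0.08. Rnf170, which also encodes a ligase of the ER membrane, was grouped elsewhere in the list and had an estimate of 0.25 (0.13 when GC-corrected). Genes of ubiquitin conjugation were below 0 in 5 of 6 (-0.20 to 0.11), and genes of extraction from the membrane in 6 of 8 (-0.21 to 0.13). The glycan-trimming genes, whose products prepare clients for the lectins OS9 and ERLEC1, split evenly, with 2 below 0 and 2 above (-0.21 to 0.25). The counts and ranges of these groups are not GC-corrected, and the correction changed the sign of some ligase and conjugation genes. None of these genes was called (edgeR's quasi-likelihood test), and 4 of the 35 had an unadjusted p below 0.05, against 12.3% of all genes.

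The genes most like Syvn1 over the 6 libraries were Ltbr (Pearson's r = 0.997), Szrd1 (0.992) and Cnpy2 (0.992), with log2 fold changes of -0.27, -0.11 and -0.20, none of which was called. Cnpy2 encodes a protein of the ER lumen.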
